A study of Danio rerio with 2 samples.

Results

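The miRNAs mir-96, mir-182, mir-183, mir-184 and mir-204, known from sensory hair cells, photoreceptors, lens and retina, were followed in small RNA libraries of whole zebrafish embryos. They were chosen by name, with earlier results of these data known, and they take up 5 of the 173 entries in the deposited list. An entry carries the name of a miRNA hairpin and joins all genomic loci of that name, so the 5 entries stand for 8 loci. The arm of the hairpin that a read came from is not separated.

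All embryos were of the AB strain and were collected at 48 hpf (hours post fertilisation), 1 library per condition, with RNA from pools of 50 embryos by the series description. The library labelled MO-Tbx5a came from embryos injected with 1.5 ng of a morpholino, an antisense oligomer, directed at the transcription factor gene Tbx5a, and the control library, labelled MO-Ct, from embryos given 1.5 ng of a control morpholino. The paper describes the depleted embryos as having received 1.5 ng of MO-Tbx5a together with 1.5 ng of a second morpholino, MO-Tbx5b. It gives the control embryos the same amount of control morpholino, so its doses differ from those of the sample labels. The depleted embryos were, by the paper, picked under the microscope for the heartstring (hts) phenotype of a stretched, unlooped heart. Depletion by injection is transient, and small RNAs do not show how far the Tbx5 proteins were reduced. With 1 library per condition the differences below have no replicate check and no test between conditions was possible.

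miRNAs guide repression of transcripts mainly through the seed near their 5′ end. In vertebrates mir-183, mir-96 and mir-182 are cut from a shared primary transcript, and they are hallmark miRNAs of ciliated sensory cells, namely the hair cells of ear and lateral line, the photoreceptors and the olfactory neurons. Changes in the seed of mir-96 cause progressive hearing loss in humans and mice. mir-184 is abundant in lens and corneal epithelium of mammals, and a seed change in the human gene causes corneal disease with cataract. mir-204 is a miRNA of lens, ciliary epithelium and retinal pigment epithelium, and its loss disturbs lens and optic fissure development in medaka. Tbx5 genes are themselves expressed in the dorsal retina, besides heart and fin buds.

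Names and neighbouring genes were looked up in the RefSeq annotation (assembly GRCz12tu), in which 8 of 8 loci matched. No coordinates are given, since the deposited values carry none. mir-183, mir-96 and mir-182 stood next to each other in this order, with 0 other gene starts among them, in the interval between the protein-coding genes ube2h and nrf1. The loci of mir-184 also lay outside protein-coding genes, the first between ankrd34c and rasgrf1 and mir-184-2 between si:ch211-107o10.3 and wdr76. The loci of mir-204 all lay within genes of TRPM cation channels. mir-204-1 was inside trpm3, the gene that also hosts mir-204 in mammals. mir-204-2 was inside trpm1a and mir-204-3 inside trpm1b, the zebrafish counterparts of the mammalian gene TRPM1, which is used by retinal ON bipolar cells and pigment cells and which hosts the related mir-211 in mammals. The name mir-211 is not among the deposited entries.

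Levels are in rpm as deposited, which is reads per 1000000 reads assigned to the listed miRNAs. Since a small RNA read spans a whole mature miRNA, rpm was not divided by length. Every rpm value was a whole number of reads once the right total was found, and the totals were 580312 reads for the MO-Tbx5a library and 1150157 for the control library. The lowest level above 0 was 19.0 rpm in the former, for mir-144 among others, and 5.22 rpm in the latter, for mir-135a, both far below the members. Because the paper describes removal of rare sequences, an entry listed at 0 can stand for several reads. The whole-embryo label was compared with tissue markers. The muscle miRNA mir-206 had 154331 rpm in the MO-Tbx5a library against 143278 rpm in the control library, and all 6 listed muscle entries, both blood entries and the liver entry mir-122 were above 0 in both.

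The 5 miRNAs were all listed well above 0, but their levels spanned about 2 orders of magnitude. mir-184 was by far the most abundant, with 36367 rpm in the MO-Tbx5a library against 36043 rpm in the control library, from 21104 and 41455 reads. It ranked 6th and 7th among the 173 entries, just above the muscle miRNA mir-1 in the MO-Ct embryos. Each of its 2 loci would account for 18183 and 18021 rpm if they contributed equally, which the joined entry cannot show. mir-182 had 8063 rpm in the MO-Tbx5a library against 8884 rpm in the control library. mir-183 followed directly, with 7399 rpm and 8132 rpm, so the 2 miRNAs of the shared transcript were neighbours in rank in both libraries.

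mir-204 had 1385 rpm in the MO-Tbx5a library against 1229 rpm in the control library, the latter next below the epithelial miRNA mir-429. Spread evenly over its 3 loci this would be 462 and 409.5 rpm per locus. mir-96 was the least abundant, with 336 rpm from 195 reads in the MO-Tbx5a library against 497 rpm from 572 reads in the control library. It ranked 94th and 89th, and stood above 200 rpm, the minimum level of the study, in both. The order of the 5 levels was the same in both libraries, and no neighbours in this order had overlapping 95% counting intervals in either library. The members together made up 5.36% of the reads of the MO-Tbx5a library and 5.48% of those of the control library, of which mir-184 alone took 67.9% (95% exact Clopper-Pearson interval 67.4 to 68.4) and 65.8% (65.4 to 66.2).

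**Figure D1:**
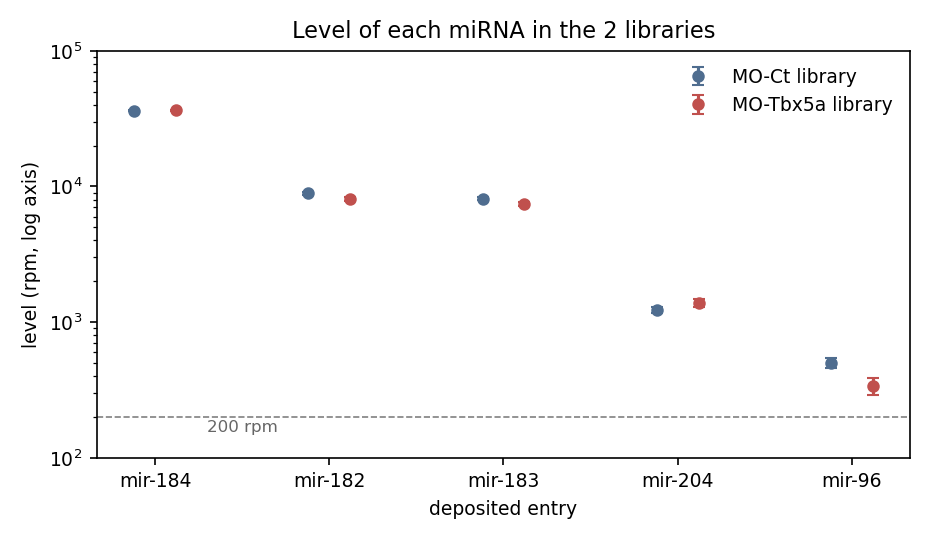
Level in rpm (log axis) of the 5 miRNAs in the MO-Ct library (blue) and the MO-Tbx5a library (red), 1 library each, with exact 95% counting intervals that are mostly smaller than the points. The levels run from 36367 rpm for mir-184 down to 336 rpm for mir-96, all above the dashed line at 200 rpm.

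The comparison asks which miRNAs differ in embryos depleted for Tbx5. The fold change (FC) is the MO-Tbx5a level over the control level, both in rpm and without a pseudocount. Its 95% interval was derived with the Clopper-Pearson method from how the reads of a miRNA were split between the libraries. Such intervals cover counting error only, since PCR copies are not independent molecules, and they compare these libraries and not the conditions. None of the 5 miRNAs reached the 1.8-fold difference used by the study, in either direction. Of the 116 entries above 200 rpm in the control library, 7 did (6.03%), each of them lower in the MO-Tbx5a library. This level minimum used the control library only, so rises from below 200 rpm were left out. It also admitted entries below 200 rpm in the MO-Tbx5a library, whereas all 5 members were above 200 rpm in both. The intervals of 0 of the 5 reached 0.556 or 1.8. An interval below 1 was found for 3 members (mir-96, mir-182 and mir-183), against 45.7% of the 162 entries above 0 in both libraries with a mean of at least 10 rpm, and an interval above 1 for 1 member (mir-204), against 17.9%. As whole embryos were pooled, the cells that the reads came from are not known. Fewer cells that express a miRNA and less of it per cell cannot be told apart.

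The middle one of the well measured miRNAs was slightly lower in the MO-Tbx5a library. The levels sum to 1000000 rpm in each library, so a change of all miRNAs together cannot show in them. Some abundant entries were higher, such as mir-21, with 148003 rpm in the MO-Tbx5a library against 88456 rpm in the control library, a FC of 1.67 (1.66 to 1.69). The median FC of the 107 entries above 200 rpm in both libraries was 0.910, or -0.14 on the log2 scale, and FC are therefore also given relative to this median. The median log2 FC of the 5 members was also -0.14, with a range from -0.57 for mir-96 to 0.17 for mir-204. Both medians are the value of mir-183, the middle entry of either set, so their equality does not compare the members with the other entries.

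mir-182 and mir-183 behaved like the middle of the list. mir-182, which in mice is among the most abundant miRNAs of photoreceptors, had a FC of 0.908 (95% interval 0.877 to 0.940), and mir-183 had a FC of 0.910 (0.877 to 0.944). Their intervals lay below 1 as deposited, but relative to the median FC the value of mir-182 was 0.997 (0.963 to 1.03) and that of mir-183, which was itself the middle one of the 107 entries, was 1.00 (0.964 to 1.04). Which side of 1 they fell on thus depended on the scaling. The entry of mir-9, a miRNA of neural progenitors and the most abundant of all, had nearly the same FC as both, 0.910 (0.904 to 0.917), as had mir-135c, at 0.910 (0.744 to 1.11). The entries that flanked the pair in level stood higher, with 1.02 (0.990 to 1.05) for mir-181a above it and 1.03 (0.998 to 1.07) for the skin miRNA mir-203a below it.

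mir-96 was the lowest of the members, with a FC of 0.676 (0.571 to 0.796), and 11 of the 107 entries had a lower FC. The 107 leave out entries above 200 rpm in the control library alone, and some of those had a lower FC too. Relative to the median FC mir-96 was at 0.743 (0.628 to 0.875), still below 1. Its interval did not overlap those of mir-182 and mir-183, its partners in the primary transcript. The entries with a FC nearest to its own were mir-153b, at 0.672 (0.540 to 0.831), and the neuronal miRNA mir-124, at 0.683 (0.574 to 0.810), a likeness that rests on the 2 libraries alone. Next below it in level, the muscle miRNA mir-133b had a FC of 0.640 (0.538 to 0.757), whereas mir-724, next above it, had 0.940 (0.811 to 1.09). Its level class was low as well. The 47 entries with a mean of 200 to 1000 rpm had a median FC of 0.853 and a lower quartile of 0.674, close to mir-96, while the 24 entries above 5000 rpm had a median of 0.910. The part of level in the FC of mir-96 was not tested.

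**Figure D2:**
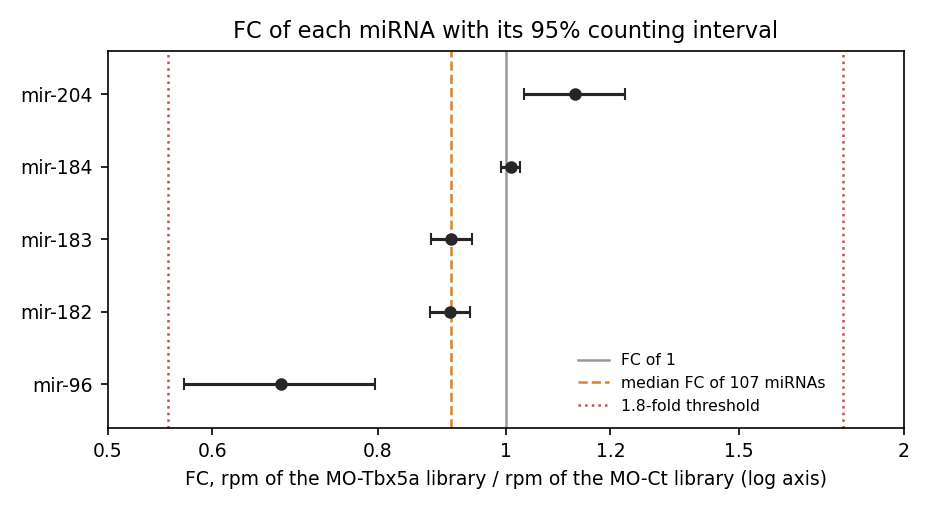
FC of each of the 5 miRNAs (MO-Tbx5a library over MO-Ct library, log axis) with its 95% counting interval, beside the median FC of 107 well measured miRNAs (dashed, 0.910) and the 1.8-fold thresholds (dotted). mir-182 and mir-183 lie on the median, mir-96 lies below it at 0.676, mir-184 lies at 1.01 and mir-204 at 1.13, and none reaches a threshold.

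mir-184 and mir-204 had FC above the median. mir-184, the lens and corneal miRNA, had a FC of 1.01 (0.992 to 1.03), the narrowest interval of the members, and its level was the nearest to equal in both libraries. Of the 107 entries, 71 had a lower FC. Relative to the median its value was 1.11 (1.09 to 1.13). The entries nearest in FC were mir-152, at 0.999 (0.926 to 1.08), and let-7c, at 0.999 (0.929 to 1.07). Its neighbour in level, mir-430a, a miRNA of maternal transcript clearance, had a FC of 0.691 (0.679 to 0.704), while mir-1, next below it, had 1.02 (1.01 to 1.04).

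mir-204, the miRNA of lens and pigment epithelium, was the highest of the members, with a FC of 1.13 (1.03 to 1.23), and 15 of the 107 entries had a higher FC. Relative to the median it was 1.24 (1.14 to 1.35). The difference was small in absolute terms, 157 rpm, and that of mir-96 was of similar size, at -161 rpm. mir-181b, which is expressed in retinal neurons, had nearly the same FC as mir-204, 1.13 (1.07 to 1.18), as did mir-99, at 1.13 (0.991 to 1.30). Of its neighbours in level, mir-429 had 1.07 (0.977 to 1.16) and mir-725 had 0.804 (0.726 to 0.890).

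**Figure D3:**
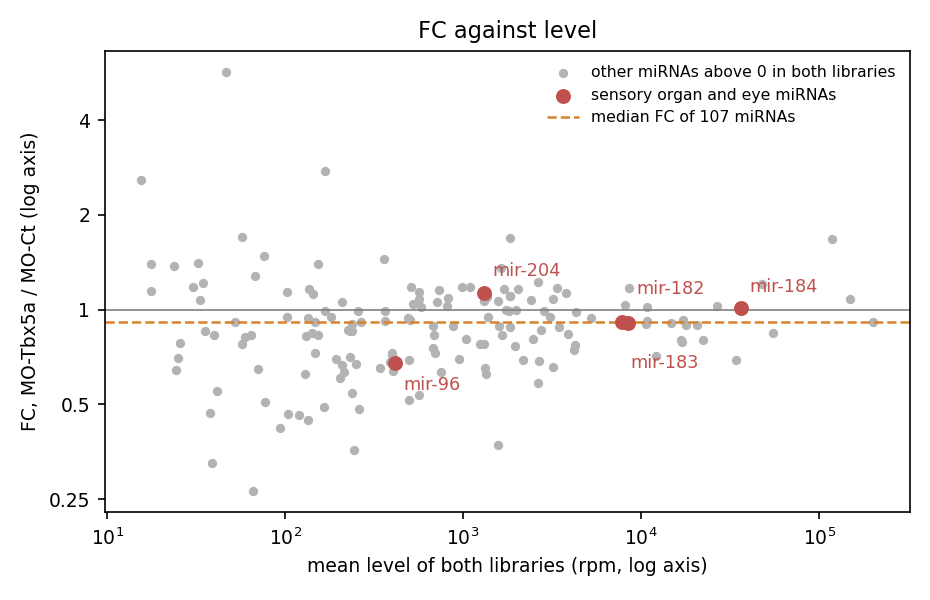
FC (MO-Tbx5a over MO-Ct, log axis) against the mean level of both libraries (rpm, log axis) for every miRNA listed above 0 in both, with the 5 sensory organ and eye miRNAs in red and the median FC of 107 miRNAs dashed. The spread of FC is wide below 1000 rpm, where mir-96 sits, and narrower above 5000 rpm, where mir-182, mir-183 and mir-184 sit.

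Ratios within a library do not depend on how it was scaled, and they set the products of the transcript shared by mir-183, mir-96 and mir-182 beside each other. The summed level of the cluster was 15798 rpm in the MO-Tbx5a library against 17513 rpm in the control library, a FC of 0.902 (0.880 to 0.925), which was 0.991 after division by the median FC. mir-182 and mir-183 kept a nearly fixed proportion. mir-182 had 1.09 reads for each read of mir-183 in the MO-Tbx5a library (1.05 to 1.14) and 1.09 in the control library (1.06 to 1.12). mir-182 made up 51.0% of the reads of the cluster in the MO-Tbx5a library (50.0 to 52.1) and 50.7% in the control library (50.0 to 51.4), with mir-183 at 46.8% (45.8 to 47.9) and 46.4% (45.7 to 47.1).

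mir-96 made up the small remainder, and here the libraries differed. Its share of the reads of the cluster was 2.13% in the MO-Tbx5a library (1.84 to 2.44) and 2.84% in the control library (2.61 to 3.08), and these intervals did not overlap. mir-183 had 22.0 reads for each read of mir-96 in the MO-Tbx5a library (19.1 to 25.6) and 16.4 in the control library (15.0 to 17.8). The corresponding ratio of mir-182 to mir-96 was 24.0 (20.8 to 27.8) and 17.9 (16.4 to 19.5). Both ratios were higher in the MO-Tbx5a library without overlap of the intervals. The share and the 2 ratios all rest on the same 195 and 572 reads of mir-96, so they are 1 difference and not separate ones.

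**Figure D4:**
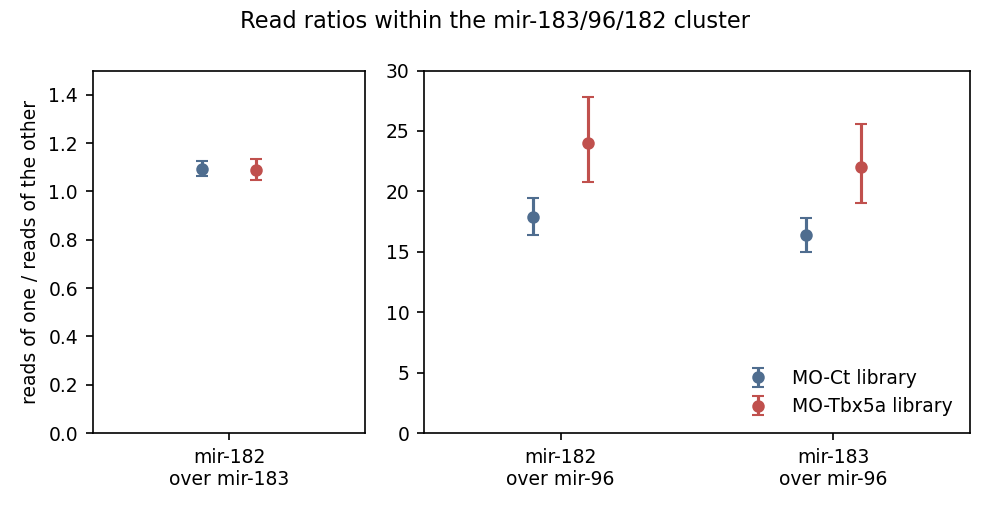
Reads of one miRNA per read of another within the same library, for the products of the transcript shared by mir-183, mir-96 and mir-182, with exact 95% counting intervals (MO-Ct blue, MO-Tbx5a red, vertical axes from 0). The ratio of mir-182 to mir-183 is 1.09 in both libraries, whereas the ratios to mir-96 are 24.0 and 22.0 in the MO-Tbx5a library and 17.9 and 16.4 in the MO-Ct library.

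The levels of mir-184 and mir-204 were set beside each other in the same way. mir-184 had 26.2 reads for each read of mir-204 in the MO-Tbx5a library (24.5 to 28.2) and 29.3 in the control library (27.8 to 31.0). These intervals overlapped at their ends, whereas the FC intervals of mir-184 (0.992 to 1.026) and mir-204 (1.033 to 1.231) did not overlap. The overlap therefore does not show that this ratio was equal in both libraries. For each read of mir-182, mir-184 had 4.51 reads (4.37 to 4.66) and 4.06 reads (3.97 to 4.15), without overlap. mir-184 thus made up more reads relative to mir-182 in the MO-Tbx5a library, a direction that no common scaling changes.

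Other miRNAs known from the eye were listed in 9 entries, of which 2 had an interval below 1, 5 an interval above 1 and 2 an interval that included 1, beside 45.7% below 1 and 17.9% above 1 over the 162 entries. Their median log2 FC was 0.14, against -0.16 for the 162 entries. They ran from mir-124, the neuronal miRNA described above, to mir-132, an activity-dependent miRNA of neurons, with 72.4 rpm in the MO-Tbx5a library against 42.6 rpm in the control library and a FC of 1.70 (1.10 to 2.62) from few reads. The retinal neuron miRNAs mir-181a, mir-181b and mir-181c had FC of 1.02 (0.990 to 1.05), 1.13 (1.07 to 1.18) and 1.16 (1.08 to 1.25). In the same list mir-9 and mir-31 had lower FC, at 0.910 (0.904 to 0.917) and 0.913 (0.694 to 1.19). The list summed to 214269 rpm in the MO-Tbx5a library against 231647 rpm in the control library. Of these sums, mir-9 gave 191730 and 210670 rpm. Most of these miRNAs are also expressed in the brain or the skin, so the list is not specific for the eye.

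miRNAs of ear, olfactory and lateral line epithelium were listed in 13 entries, with 4 intervals below 1, 2 above 1 and 7 that included 1, beside the same 45.7% and 17.9% over all 162 entries. Their median log2 FC was 0.05, against -0.16 for the 162 entries. The lowest was mir-18a, at 0.650 (0.592 to 0.713), which belongs to the broadly expressed mir-17-92 cluster, and the highest was mir-429b, at 1.38 (0.681 to 2.73), covered by few reads. The olfactory and epithelial miRNAs mir-200a and mir-200b had FC of 0.859 (0.807 to 0.914) and 0.884 (0.815 to 0.958). The related mir-200c, mir-429 and mir-141 had 1.08 (0.943 to 1.23), 1.07 (0.977 to 1.16) and 1.17 (1.11 to 1.24). With the broadly expressed mir-18a and the skin miRNA mir-203a in it, the list is not specific for sensory epithelium. None of the entries of these lists past 200 rpm in the control library differed by 1.8-fold, against 6.03% of all entries above that level, so that few would be past it in lists of this size at the overall share.

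The levels of the tissue marker lists are given beside these values. The 6 muscle entries summed to 183908 rpm in the MO-Tbx5a library against 172451 rpm in the control library. They had 1 interval below 1 and 2 above 1, beside 45.7% and 17.9% over the 162 entries. Their median log2 FC was -0.08, against -0.16 for the 162 entries. The blood entries summed to 94.8 and 180 rpm, of which the erythroid mir-451 had a FC of 0.464 (0.326 to 0.647) and mir-144 had 1.15 (0.493 to 2.54). For the liver miRNA mir-122, with 53.4 and 65.2 rpm, the FC was 0.819 (0.521 to 1.26). The part of tissue composition in the values of the 5 members was not tested.

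**Figure D5:**
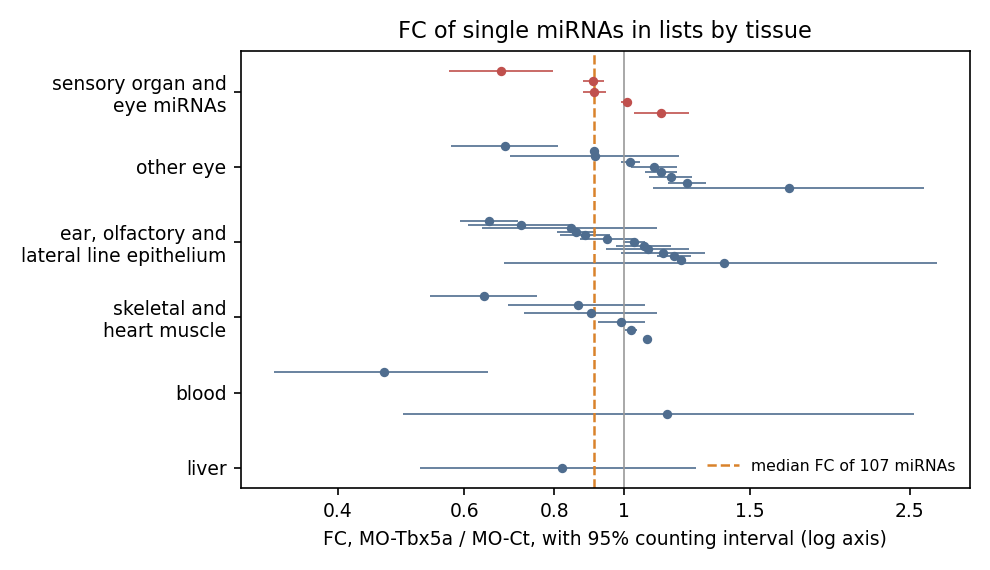
FC of single miRNAs (MO-Tbx5a over MO-Ct, log axis) with 95% counting intervals, the 5 sensory organ and eye miRNAs in red and the other lists in blue, each sorted by FC. The other eye miRNAs run from 0.683 to 1.70 and the ear, olfactory and lateral line list from 0.650 to 1.38, around the span of 0.676 to 1.13 of the 5 members.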

How the data were processed

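The authors prepared small RNA libraries with the Illumina v1.5 protocol (13 PCR cycles) and sequenced them on a GAIIx. By their description they kept reads of 18 to 33 nt whose sequence occurred at least 30 times. They annotated these to zebrafish miRBase v16 with at most 2 mismatches and 2 additional bases at each end, and deposited 1 rpm value per miRNA entry and library. The deposited values go below this minimum, since mir-135a had 6 recovered reads in the MO-Ct library and 0 in the MO-Tbx5a library. How the minimum of 30 was applied is therefore not known. Other choices of the annotation are not given in the sources used here.

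Reads were recovered here as the smallest total, from 50000 to 3000000, that turned the 173 values into whole reads within their rounding and matched their sum. A count model has no residual degrees of freedom with 1 library per group and was not run. Intervals are exact 95% Clopper-Pearson intervals. The miRNAs named are the 5 members, their neighbours in MO-Ct level, the 2 entries nearest in FC among those above 200 rpm in both libraries, and the lowest and highest FC of each of 5 tissue lists. From these lists the text also names mir-31, mir-181c, mir-200a, mir-200b, mir-200c and mir-141, chosen after their values were seen. mir-21 was also named after its value was seen. The members and lists were chosen with earlier results of these data known. Alternatives were pseudocounts, rescalings, other thresholds and summed related names. The recovery of totals and the intervals were run on simulated libraries drawn by random counting alone. Such libraries cannot check the effect of PCR copies, of the removal of rare sequences or of variation between libraries. Mature sequences were not used here. Intervals were computed with SciPy 1.17.1 and NumPy 2.4.6, tables were handled in Python 3.11.15 with pandas 2.3.3, and plots were drawn with Matplotlib 3.10.9.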

Additional observations from a re-analysis of the deposited data

How the results depend on the processing

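No paired analysis was possible because MO-Tbx5a and MO-Ct have 1 library apiece, which also leaves no replicate to omit. The pseudocounts of 1 and 10 rpm and the summing of related names kept every FC of the members within its counting interval. Each rescaling raised the FC of all 5 members, and the cause of the common shift was not tested. Division by the median FC, division by a trimmed mean of log ratios over 59 entries, leaving out the 3 most abundant entries and division by the median FC of the 40 entries nearest in rpm gave, in this order, 1.11, 1.14, 1.11 and 1.11 for mir-184 and 1.24, 1.27, 1.24 and 1.23 for mir-204. mir-182 moved from 0.908 to 0.997, 1.02, 1.00025 and 1.01, and mir-183 from 0.910 to 1, 1.02, 1.003 and 1.005. The summed FC of the cluster of mir-183, mir-96 and mir-182 became 0.991, 1.02, 0.994 and 0.999, and the median log2 FC of the members became 0, 0.035, 0.0041 and 0.0079. The value of 0 was fixed in advance, because mir-183 supplied both the median of the members and the median divided by. Each of these rescalings left 1 member with an interval below 1 (mir-96) in place of 3, and 2 members with an interval above 1 (mir-184 and mir-204) in place of 1. The shares over all entries were not computed under these rescalings. These counts therefore cannot be set against the list as a whole. mir-96 stayed below 1, at 0.676 to 0.790, in the 7 alternatives run for it, and mir-204 stayed above 1 in its 7. No member passed the fold and level thresholds in the 15 settings of scaling and threshold run for this count, including a FC of 1.5 and no minimum level. The share over all entries was computed for the main thresholds only, at 6.03%. With 5 members, a count of 0 does not set them apart from the other entries. At 1.5-fold mir-96 fell just short, with a FC of 0.676 and a counting interval that spanned this threshold. Depth limits mir-96 most, whose 195 reads in the MO-Tbx5a library leave an interval from 0.571 to 0.796.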
